A study of Mus musculus with 18 samples.

Results

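*Avil*, the gene of advillin, and its relatives in the gelsolin and villin family were followed in dorsal root ganglia (DRG) of mice lacking 1 of 3 sodium channels. The members are *Avil*, *Vil1*, *Gsn*, *Capg*, *Scin*, *Svil* and *Flii*, taken with every probe set that the array annotation gives to them, which makes 16 of 45037 probe sets and 7 of 18193 genes. The samples were whole DRG from all spinal levels, and each was measured on its own Affymetrix GeneChip mouse genome array. Nav1.7 KO mice carried floxed *Scn9a* and Cre recombinase driven by Advillin, so the deletion was conditional and aimed at sensory neurons, whereas Nav1.8 KO (*Scn10a*) and Nav1.9 KO (*Scn11a*) mice were global null mutants. Each line had 3 KO arrays and 3 arrays of littermate controls labelled Wild Type, giving 18 arrays in 6 groups. According to the study's methods, young adult mice of both sexes were used in general, but the age, strain and sex of each array's animal, pooling of animals, and the Cre and floxed alleles of the littermates are not given in the sources used here. Cre under Advillin was thus a feature of the Nav1.7 KO group and of neither other KO group, and it cannot be told apart from the loss of the channel.

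The gelsolin family consists of actin-binding proteins built from repeats of a gelsolin-like domain. In response to calcium, several of them sever actin filaments, and they cap the fast-growing end of a filament, which lets a cell remodel its cortex, its processes and its growth cones. Advillin is made by peripheral sensory neurons and by few other cells, and for this reason its gene is used to drive Cre in DRG. Villin 1 bundles and severs actin in the microvilli of gut and kidney epithelium. Gelsolin is found in many cell types and also circulates in plasma, scinderin (adseverin) severs filaments in secretory cells, and the macrophage capping protein encoded by *Capg* caps filaments without cutting them. Supervillin links actin and myosin to the membrane, and flightless I also acts as a partner of nuclear receptors.

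Across the series, the median log2 intensity of an array was between 6.33 and 6.36, and arrays of 1 group correlated at r = 0.996 to 0.998 over all probe sets. In Nav1.8 KO DRG the *Scn10a* signal was 2.98-fold below that of littermates (adjusted p = 5.40e-05), and in Nav1.9 KO DRG the *Scn11a* signal was 3.62-fold below it (adjusted p = 7.13e-07). *Scn9a* differed by -0.06 on the log2 scale in Nav1.7 KO DRG (adjusted p = 0.642). A probe set outside the deleted exons does not test the deletion, and those exons are not given in the sources used here, so *Scn9a* leaves the Nav1.7 label unchecked. Of 14 pan sensory neuron markers, 13 were measured, and their mean log2 level was 12.69 to 12.77 over the 18 arrays. By *Xist*, the RNA of the inactive X chromosome, 2 of 3 Nav1.7 KO arrays and 3 of 3 Nav1.7 littermate arrays were in the high class, as were 2 of 3 Nav1.8 KO arrays and 0 of 3 of their littermates, whereas all Nav1.9 line arrays were low.

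*Avil* was lower in Nav1.7 KO DRG than in littermates, by a factor of 1.56, and the change differed from that in both lines without Cre. Its 1 probe set (1419148_at) read 12.21, 12.23 and 12.21 log2 units in the 3 Nav1.7 KO arrays and 12.80, 12.94 and 12.84 log2 units in the 3 littermate arrays. The highest KO array was below the lowest littermate array, and the KO arrays lay close to each other (mean 12.22 ± 0.011 in Nav1.7 KO arrays, against 12.86 ± 0.070 in littermate arrays, SD, n = 3 arrays each). The log2 fold change was -0.64 (SE 0.041, 95% interval -0.73 to -0.56, adjusted p = 8.03e-08 over all genes), which is a signal of 64.1% of the littermate level (60.4% to 68.0%). The interval did not include -1, the log2 value of a 2-fold lower signal. This probe set was at percentile 98.8 of mean intensity over all probe sets. Whether signal follows RNA amount in proportion there was not tested, so the interval describes the signal only. By p-value, *Avil* ranked 13 of 18193 genes in this line, and by log2 fold change it was number 78 from the lowest. In whole ganglia, fewer sensory neurons and less *Avil* RNA per neuron cannot be told apart. The mean level of the 13 pan sensory neuron markers was 12.69 to 12.72 in Nav1.7 KO arrays and 12.75 to 12.76 in littermate arrays. None of these markers passed the threshold, 5 had an unadjusted p under 0.05 (as did 16.3% of all genes), and the median of their log2 fold changes was -0.03, and the part of this difference in the *Avil* result was not tested.

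*Avil* did not pass the threshold in the lines without Cre. In the Nav1.8 line it read 12.83, 12.80 and 12.74 in KO arrays and 12.79, 12.79 and 12.84 in littermate arrays, so the groups overlapped (log2 fold change -0.02, 95% interval -0.10 to 0.07, adjusted p = 0.949). In the Nav1.9 line it read 12.88, 12.83 and 12.87 in KO arrays and 12.92, 12.89 and 12.94 in littermate arrays. The 3 Nav1.9 KO arrays were all just below their littermates, and the log2 fold change was -0.06 (95% interval -0.14 to 0.03, adjusted p = 0.626). The fall in the Nav1.7 line was larger than the change in either other line, with a difference of -0.63 from the Nav1.8 effect (SE 0.057, adjusted p = 1.87e-05) and of -0.58 from the Nav1.9 effect (SE 0.057, adjusted p = 3.07e-05). These were tests of the difference between effects, which 2 of the 7 members (*Avil* and *Scin*) and 2.15% of all genes passed against the Nav1.8 line, and which 3 of the 7 (with *Svil*) and 2.82% of all genes passed against the Nav1.9 line. The Nav1.8 and Nav1.9 effects on *Avil* differed by 0.04 (95% interval -0.08 to 0.16, adjusted p = 0.863).

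Ordered by mean *Avil* level, the groups ran from Nav1.7 KO (12.22) through Nav1.8 KO (12.79), Nav1.8 littermates (12.81), Nav1.9 KO and Nav1.7 littermates (both 12.86) to Nav1.9 littermates (12.92). Each neighbouring pair in this order overlapped in its ranges except Nav1.7 KO and Nav1.8 KO. The 3 Nav1.7 KO arrays spanned 12.21 to 12.23, while the 15 other arrays spanned 12.74 to 12.94. Between littermate groups, *Avil* differed by 0.05 (Nav1.7 minus Nav1.8, adjusted p = 0.369), by -0.06 (Nav1.7 minus Nav1.9, adjusted p = 0.432) and by -0.11 (Nav1.8 minus Nav1.9, adjusted p = 0.0904), none past the threshold. Differences between littermate groups were common, since 23.3%, 12.2% and 12.8% of all genes passed in these 3 comparisons, and 2, 1 and 1 of the 7 members did so (*Gsn* and *Svil*, then *Svil*, then *Gsn*). Between littermate groups, the line and any batch cannot be told apart. The *Xist* class differed as well, being high in 3 of 3 Nav1.7 littermate arrays and in 0 of 3 of each other littermate group.

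**Figure D1:**
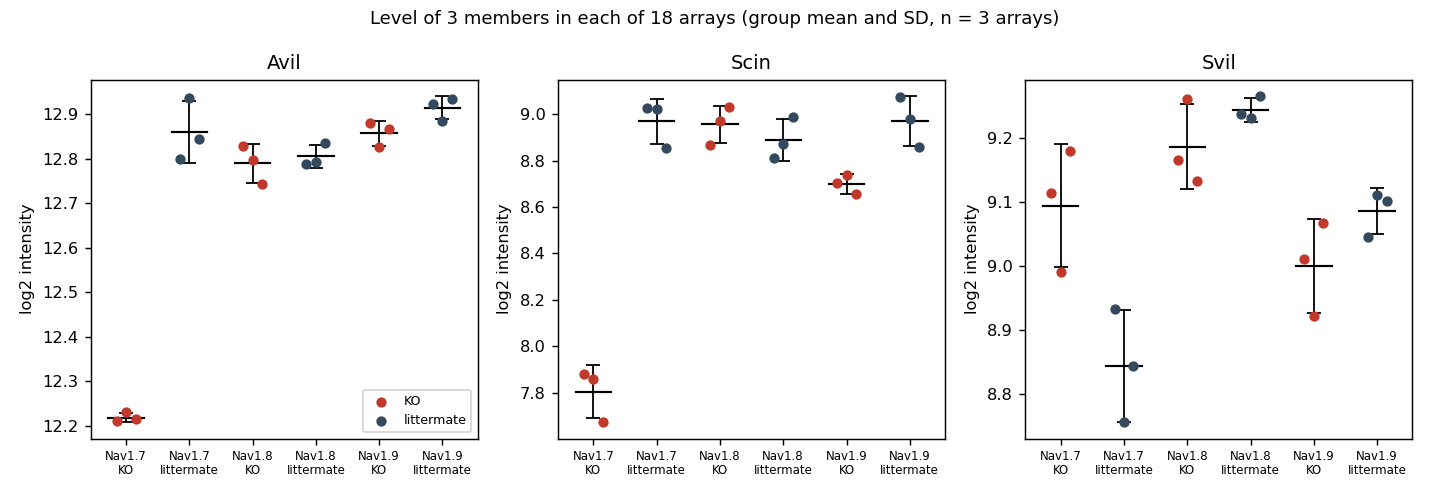
Log2 intensity of *Avil*, *Scin* and *Svil* in each of 18 arrays (points), by line and genotype, with the group mean and SD (line and whiskers, n = 3 arrays). The 3 Nav1.7 KO arrays lie at 12.21 to 12.23 for *Avil* and at 7.67 to 7.88 for *Scin*, below all 15 other arrays, and for *Svil* the Nav1.7 littermates, at 8.76 to 8.93, have the lowest group mean.

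*Scin* also fell in Nav1.7 KO DRG. Its probe set (1450276_a_at) read 7.88, 7.86 and 7.67 in Nav1.7 KO arrays and 9.03, 9.02 and 8.86 in littermate arrays. The lowest littermate array stood well above the highest KO array. The log2 fold change was -1.16 (SE 0.072, 95% interval -1.32 to -1.01, adjusted p = 6.99e-08), a 2.24-fold lower signal, and *Scin* ranked 12 by p-value and number 22 from the lowest fold change. The *Scin* signal was thus at 44.6% (40.1% to 49.6%) of that in littermates. Like *Avil*, *Scin* was also below its littermates in all 3 Nav1.9 KO arrays, at 8.70, 8.74 and 8.65 against 9.07, 8.98 and 8.86 in Nav1.9 littermates. This change of -0.27 (95% interval -0.42 to -0.12) had an unadjusted p of 0.00186 in the limma fit and an adjusted p of 0.122, so it was not past the threshold. In the Nav1.8 line the groups overlapped, at 8.87, 8.97 and 9.03 in KO arrays and 8.81, 8.87 and 8.99 in littermate arrays (log2 fold change 0.07, adjusted p = 0.853). The Nav1.7 effect on *Scin* differed from the Nav1.8 effect by -1.23 (SE 0.102, adjusted p = 6.87e-06) and from the Nav1.9 effect by -0.89 (SE 0.102, adjusted p = 0.000124). The suffix of the *Scin* probe set marks one whose probes can match more than 1 transcript of a gene, and no other probe set named for *Scin* was present.

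Because *Avil* and *Scin* were lower together in Nav1.7 KO DRG, their promoter windows are shown, each 250 bases before to 50 bases after the annotated start (RefSeq, build GRCm38.p6). The *Avil* window is chr10:127000459-127000758 on the + strand and the *Scin* window is chr12:40134179-40134478 on the - strand, both written 5′ to 3′. Capitals mark matches to the RUNX motif TGTGGT on either strand.
Avil: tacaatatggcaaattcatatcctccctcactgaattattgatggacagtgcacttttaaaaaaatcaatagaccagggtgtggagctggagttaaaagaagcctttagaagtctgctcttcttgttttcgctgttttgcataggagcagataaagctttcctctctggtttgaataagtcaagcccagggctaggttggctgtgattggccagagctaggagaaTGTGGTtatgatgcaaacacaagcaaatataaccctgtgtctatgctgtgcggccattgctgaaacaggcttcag
Scin: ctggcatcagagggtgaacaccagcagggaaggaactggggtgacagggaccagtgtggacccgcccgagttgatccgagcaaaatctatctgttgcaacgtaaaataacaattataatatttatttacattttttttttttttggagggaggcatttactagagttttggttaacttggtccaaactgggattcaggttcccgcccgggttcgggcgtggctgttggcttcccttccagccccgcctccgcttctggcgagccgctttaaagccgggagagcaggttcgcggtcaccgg
The *Avil* window holds 1 RUNX match, 25 bases before the start, and 1 reverse CCAAT match (ATTGG) that begins 45 bases before the start and does not overlap it. The RUNX motif occurs in 16.76% and CCAAT in 37.41% of 32851 mouse windows of this length. The *Scin* window holds no match to the 6 motifs searched on both strands, which were also TGANTCA (AP-1), TGACGTCA (CRE), TGGAAA (NFAT5 core) and TATAAA (the TATA box), found in 7.808%, 1.79%, 21.43% and 13.62% of windows. GC content was 43% in the *Avil* window and 52% in the *Scin* window, beside a median of 52.7% over all windows. Of the 7 members, 6 had a window, and in *Vil1*, *Capg* and *Flii* no motif of the 6 was matched, while *Gsn*, with 3 annotated starts, had RUNX matches at 2 of them. These matches describe the letters of the windows and are not evidence of binding.

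*Svil* was the 1 member called higher in Nav1.7 KO DRG, by 1.19-fold. Its brighter probe set (1460694_s_at) read 9.11, 8.99 and 9.18 in Nav1.7 KO arrays and 8.93, 8.76 and 8.84 in littermate arrays. No KO array overlapped a littermate array, and the log2 fold change was 0.25 (SE 0.057, 95% interval 0.13 to 0.37, adjusted p = 0.0198). A second probe set (1460735_at) read 9.04, 8.96 and 9.01 in Nav1.7 KO arrays and 8.78, 8.85 and 8.93 in littermate arrays. It too was separated, by 0.15 (95% interval 0.05 to 0.26), with an adjusted p of 0.148 over all probe sets. The littermate groups of the Nav1.8 and Nav1.9 lines spanned 9.04 to 9.27 for the brighter probe set, a range that held 2 of the 3 Nav1.7 KO arrays, while all 3 Nav1.7 littermate arrays were below it. Nav1.7 littermates were lower than Nav1.8 littermates (log2 difference -0.40, adjusted p = 0.000252) and lower than Nav1.9 littermates (log2 difference -0.24, adjusted p = 0.0119). The Nav1.7 effect differed from the Nav1.9 effect by 0.34 (adjusted p = 0.0362) and from the Nav1.8 effect by 0.31 (adjusted p = 0.0665). The *Svil* call was lost when Nav1.7 littermate 2 (adjusted p = 0.0965), littermate 3 (0.0597), KO 1 (0.0680) or KO 3 (0.0759) was left out, and when the line was fitted on its own 6 arrays (0.176). The _s_at suffix marks probes that can match transcripts of more than 1 gene, and with the second probe set in its place the log2 fold change was 0.15 and the call was lost (adjusted p = 0.0916 over genes). The difference from the Nav1.9 effect was lost on leaving out any of 9 of the 12 arrays concerned (adjusted p up to 0.0961).

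The other 4 members did not pass the threshold in any line. *Vil1* read 4.53, 4.21 and 4.41 in Nav1.7 KO arrays and 4.07, 4.0004 and 4.17 in littermate arrays (log2 fold change 0.30, 95% interval 0.09 to 0.51, adjusted p = 0.114). Its probe set is among the 4 of 16 whose mean lay below the 40th percentile of all probe sets, so this is a separation at dim signal. Of 6 epithelial markers, where villin 1 belongs, none passed in Nav1.7 KO DRG and the median log2 fold change was -0.01. *Capg* read 9.11, 9.004 and 8.9998 in Nav1.7 KO arrays and 8.93, 8.77 and 8.95 in littermate arrays (log2 fold change 0.16, 95% interval 0.03 to 0.28, adjusted p = 0.188). It was separated in the Nav1.8 line as well, at 8.99, 8.91 and 8.97 in KO arrays and 8.78, 8.78 and 8.87 in littermate arrays (0.15, adjusted p = 0.561). In the Nav1.9 line *Capg* overlapped between the groups, with a log2 fold change of 0.01 (adjusted p = 0.964).

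*Gsn*, the founding member of the family, was measured by 6 probe sets. The brightest (1456312_x_at) read 12.53, 12.56 and 12.65 in Nav1.7 KO arrays and 12.63, 12.49 and 12.35 in littermate arrays, so the groups overlapped (log2 fold change 0.09, 95% interval -0.06 to 0.24, adjusted p = 0.582). In the Nav1.8 line it read 12.84, 12.95 and 12.90 in KO arrays and 12.73, 12.79 and 12.68 in littermate arrays. Here all KO arrays were higher, and so they were for each of the 4 bright *Gsn* probe sets, with log2 fold changes from 0.14 to 0.21 and adjusted p-values of 0.544 or more. Those 4 probe sets are annotated to the same gene and are not separate replicates. Only 1415812_at among them (log2 fold change 0.14) lacks the _x_at suffix, which marks probes that can match other transcripts as well. In the Nav1.9 line the *Gsn* log2 fold change was 0.09 (adjusted p = 0.643). Among littermates *Gsn* was lower in the Nav1.7 line than in the Nav1.8 line (-0.25, adjusted p = 0.0184) and higher in the Nav1.8 line than in the Nav1.9 line (0.24, adjusted p = 0.0342). The first call was lost on leaving out either of 2 arrays (adjusted p up to 0.0920) and with the *Xist* class as a term (adjusted p = 0.0868). The second was lost on leaving out any of 4 arrays (adjusted p up to 0.144) and with median centring (adjusted p = 0.0528). By its brightest probe set (1416044_at), *Flii* had the narrowest range of effects, with log2 fold changes of -0.02, -0.02 and 0.04 in KO DRG of the Nav1.7, Nav1.8 and Nav1.9 lines. The 95% intervals were within -0.11 to 0.12, and its levels were 10.70 to 10.73 in Nav1.7 KO arrays and 10.72 to 10.75 in their littermates. In the same order, 1448189_a_at gave 0.04, -0.07 and 0.05 and 1439356_at gave 0.06, -0.06 and 0.11, none past the threshold. Littermates differed by 1448189_a_at, by -0.23 (Nav1.7 minus Nav1.8, adjusted p = 0.00150 over all probe sets) and by 0.21 (Nav1.8 minus Nav1.9, adjusted p = 0.00490).

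**Figure D2:**
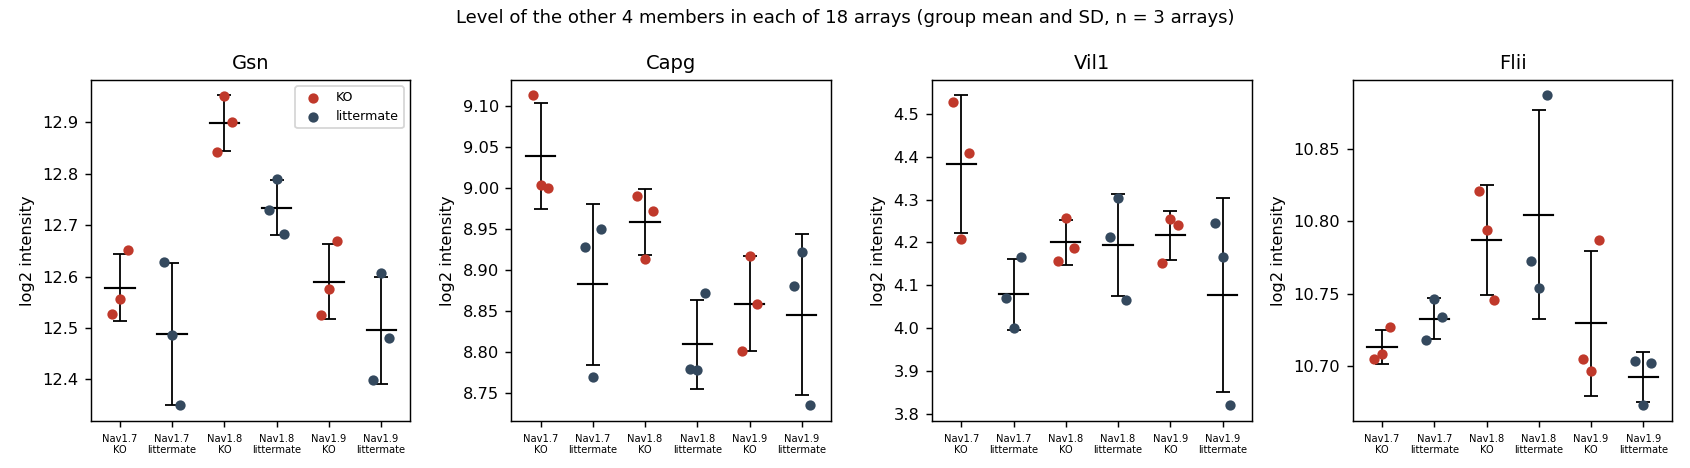
Log2 intensity of *Gsn*, *Capg*, *Vil1* and *Flii* in each of 18 arrays (points), by line and genotype, with the group mean and SD (line and whiskers, n = 3 arrays). The *Gsn* level is highest in the Nav1.8 KO arrays, at 12.84 to 12.95, and the Nav1.7 KO arrays of *Vil1*, at 4.21 to 4.53, lie above their littermates.

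As a group, 3 of the 7 members passed the threshold in Nav1.7 KO DRG (2 lower, 1 higher), where 4.33% of all 18193 genes passed (1.81% higher and 2.51% lower). In the Nav1.8 line 0 of 7 passed, with 0.0165% of all genes, and in the Nav1.9 line 0 of 7 passed, with 0.473%. At an unadjusted p under 0.05 in the limma fit, where 16.3%, 8.09% and 12.1% of all genes lay in the Nav1.7, Nav1.8 and Nav1.9 lines, there were 5, 2 and 1 of the 7 members. The 3 KO arrays stood above the 3 littermate arrays for 3 members and below them for 2 in the Nav1.7 line, where 10.8% and 9.61% of all genes were separated in this way. *Gsn* and *Capg* were separated upwards in the Nav1.8 line (2 of 7 members, 4.76% of all genes), and *Avil* and *Scin* were separated downwards in the Nav1.9 line (2 of 7 members, 9.29% of all genes). The median log2 fold change of the members was 0.09 in the Nav1.7 line, beside 0.01 over all genes, and the members ran from -1.16 to 0.30. By probe set, 3 of 16 passed in the Nav1.7 line, with 2.27% of all probe sets, and they were those of *Avil* and *Scin* and the brighter one of *Svil*. The 5 further probe sets of *Gsn* and *Flii* above the 40th percentile, which do not stand for their gene here, had log2 fold changes between 0.04 and 0.13 in this line, none past the threshold. For *Flii* the sign differed between its 3 probe sets (-0.02, 0.06 and 0.04).

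**Figure D3:**
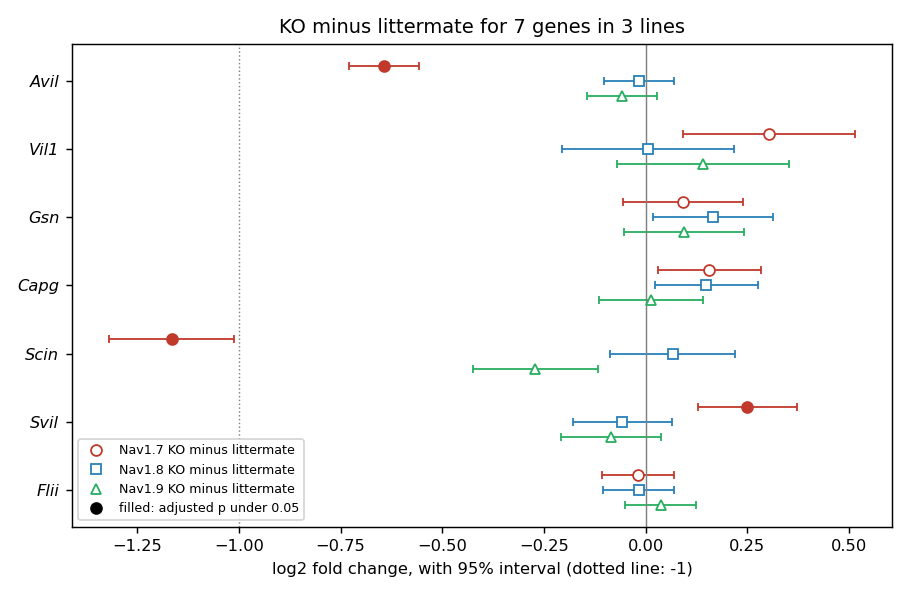
Log2 fold change of each member in KO DRG of the 3 lines against their littermates, with 95% intervals from the fit of all 18 arrays (filled symbols passed an adjusted p of 0.05). *Avil* at -0.64, *Scin* at -1.16 and *Svil* at 0.25, all in the Nav1.7 line, are the filled points, and the dotted line marks -1.

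**Figure D4:**
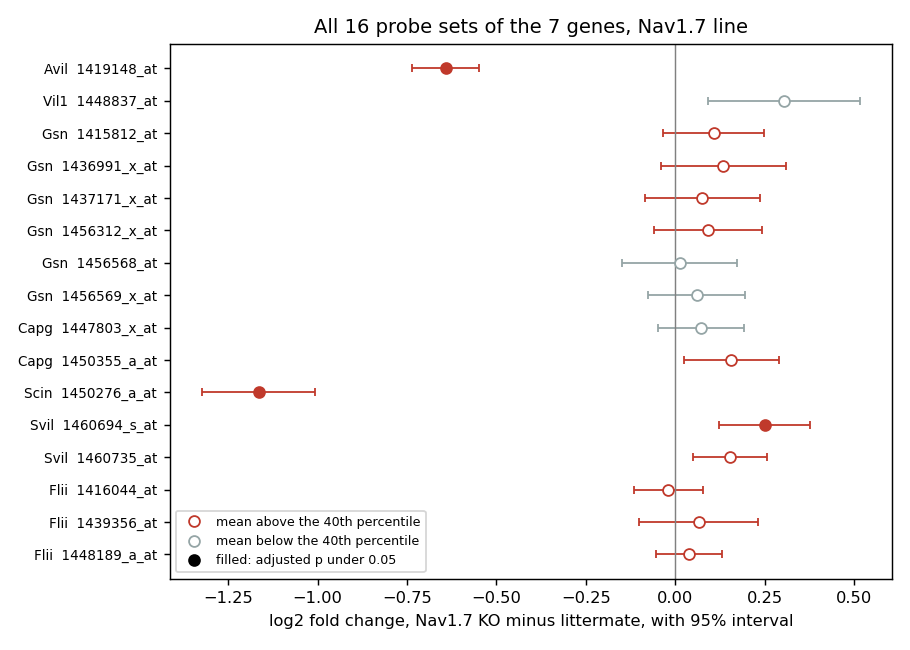
Log2 fold change in Nav1.7 KO DRG for all 16 probe sets, with 95% intervals from the fit over all probe sets. The 4 grey probe sets lie below the 40th percentile of mean intensity, and the 3 filled points are the probe sets of *Avil*, *Scin* and 1 of the 2 of *Svil*.

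Other proteins that act on the same filaments were compared in 4 lists of actin regulators (severing and turnover, capping, nucleation and monomer binding, bundling and crosslinking). Of 50 measured genes, 2 were higher and 0 lower in Nav1.7 KO DRG, which is 4% beside the 4.33% of all genes, and 8 had an unadjusted p under 0.05, a level that 16.3% of all genes reached. *Limk2*, a kinase that inactivates cofilin, was 1.39-fold higher in Nav1.7 KO DRG (log2 fold change 0.48, adjusted p = 0.0101). *Twf2*, a twinfilin that caps filaments and binds monomers, was 1.16-fold higher (log2 fold change 0.21, adjusted p = 0.0200). The other 48 did not pass. Leaving out 1 array of the line gave 4 calls among the 50 without Nav1.7 KO 3 and 1 call without any of the other 5 arrays. In the Nav1.8 and Nav1.9 lines 0 of 50 passed, with 4 and 7 at an unadjusted p under 0.05 (8.09% and 12.1% of all genes), and the median log2 fold changes over the 50 genes were 0.01, -0.01 and -0.02 in KO DRG of the Nav1.7, Nav1.8 and Nav1.9 lines.

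Markers of non-neuronal cells in the ganglion and nerve injury genes were read in the same fit. The share of all genes past the threshold was 4.33%, 0.0165% and 0.473% in the Nav1.7, Nav1.8 and Nav1.9 lines. Of 12 macrophage markers, 1 passed as higher in Nav1.7 KO DRG than in littermates, the macrophage receptor gene *Adgre1* (1.29-fold, adjusted p = 0.0285), 7 had an unadjusted p under 0.05 (16.3% of all genes), and the median log2 fold change was 0.37. Their mean log2 level was 7.003 to 7.40 in Nav1.7 KO arrays and 6.61 to 6.98 in littermate arrays, a difference in the same direction as *Capg*, which macrophages express, and its part in the *Capg* values was not tested. The 4 groups of the other lines spanned 7.07 to 7.65, so the Nav1.7 littermates were the group that stood apart. They were also the only group with 3 of 3 arrays in the high *Xist* class. With the *Xist* class as a term, 5 of the 12 markers passed in the Nav1.7 line. Without Nav1.7 littermate 3 none of the 12 markers passed. The median log2 fold change of the macrophage markers was 0.03 in the Nav1.8 line and -0.13 in the Nav1.9 line, beside 0.15 and 0.01 for *Capg*. Of 10 fibroblast and connective tissue markers none passed in any line, with median log2 fold changes of 0.11, 0.15 and -0.01 in KO DRG of the Nav1.7, Nav1.8 and Nav1.9 lines, beside 0.09, 0.16 and 0.09 for *Gsn*, and their part in the *Gsn* values was not tested. Of 6 satellite glia markers, 1 passed, *Fabp7*, which encodes a fatty acid binding protein and rose 1.28-fold in the Nav1.7 KO group (adjusted p = 0.0175). The other 5 did not pass, nor did they have an unadjusted p under 0.05. The log2 fold changes of the 6 ran from -0.09 to 0.36, with a median of 0.06. None of 7 Schwann cell and myelin markers or 9 muscle markers passed in any line. The muscle markers, which belong to a tissue that also expresses *Svil*, had a median log2 fold change of 0.24 in Nav1.7 KO DRG and a mean log2 level of 6.96 to 8.66 in KO arrays, against 7.10 to 8.001 in littermate arrays, and their part in the *Svil* values was not tested. Among 11 nerve injury genes, 3 passed as higher in the Nav1.7 KO group than in its littermates, the transcription factor gene *Jun* (1.33-fold), the adhesion protein gene *Flrt3* (1.30-fold) and the neurotrophin gene *Bdnf* (1.49-fold), with adjusted p of 0.00256, 0.0223 and 0.0224, and 1 passed without Nav1.7 littermate 1 or without littermate 3. In Nav1.9 KO DRG 8 of the 11 were lower than in littermates, led by *Sprr1a* (9.19-fold lower), *Atf3* (3.57-fold lower) and *Flrt3* (1.499-fold lower), with adjusted p of 0.00554, 0.00711 and 0.00972, while *Avil* did not pass there. The mean log2 level of the 11 genes was 7.84 to 7.98 in Nav1.9 KO arrays and 8.63 to 9.62 in their littermates, which stood above the littermates of the Nav1.7 line (7.79 to 7.81) and the Nav1.8 line (8.13 to 8.34). It was 8.01 to 8.30 in Nav1.7 KO arrays and 7.77 to 7.97 in Nav1.8 KO arrays, the latter below their littermates. In the Nav1.8 line 0 of the 11 passed, but 6 had an unadjusted p under 0.05 in the limma fit (8.09% of all genes). The median log2 fold change of the 11 genes was 0.41, -0.39 and -0.94 in the Nav1.7, Nav1.8 and Nav1.9 lines. The count of calls in the Nav1.9 line was 5 without Nav1.9 littermate 1, KO 2 or KO 3.

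Genes that neighbour *Avil* were counted because the Cre of the Nav1.7 line was under Advillin. Within 2 Mb of the *Avil* start 93 genes were measured (GRCm38.p6 annotation), and 2 were higher and 2 lower in Nav1.7 KO DRG, 4.30% beside 4.33% of all genes. *Timeless*, a replication fork gene, was 1.903-fold higher (log2 fold change 0.93, SE 0.101, adjusted p = 3.58e-05) and *Slc16a7*, a monocarboxylate transporter gene, was 1.32-fold higher (adjusted p = 0.0179). *Kif5a*, a neuronal kinesin heavy chain gene, was 1.22-fold lower (adjusted p = 0.000362) and *Myo1a*, a gene of a microvillar myosin, was 1.40-fold lower (adjusted p = 0.0127). Leaving out any 1 of the 6 arrays of the line lowered the count of 4, to 2 without Nav1.7 littermate 3 and to 3 at most. In the other lines 0 of the 93 passed, and the median log2 fold change of the 93 genes was -0.01 in the Nav1.7 line. None of the 6 genes within 2 Mb of *Scin* and none of the 15 within 2 Mb of *Svil* passed in the Nav1.7 line.

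The genes whose levels followed *Avil* most closely were found by Pearson's r over the 18 arrays, as a description without a test. The 5 highest were *Gm16364* (r = 0.98), *Raph1* (0.97), *Rgs8* (0.97), *Th* (0.96) and *Fam184b* (0.96), and each of them was lower in Nav1.7 KO DRG, by 7.82-fold, 1.35-fold, 4.25-fold, 4.80-fold and 1.55-fold. The 5 lowest were *Vasn* (r = -0.91), *Diaph3* (-0.91), *Cntnap4* (-0.91), *Plxna2* (-0.89) and *Gpc5* (-0.89), all higher in Nav1.7 KO DRG, by 1.27-fold, 1.496-fold, 1.67-fold, 1.15-fold and 1.44-fold. *Th* encodes tyrosine hydroxylase, the first enzyme of catecholamine synthesis, and *Diaph3* a formin that nucleates actin. These r values are over all 6 groups together, and the 3 Nav1.7 KO arrays are the lowest for *Avil*. The directions of these genes in Nav1.7 KO DRG thus follow largely from how they were chosen and are not a separate result. For the other members the closest genes were *Vav3* for *Scin* (r = 0.98), *Dcn*, the gene of the matrix proteoglycan decorin, for *Gsn* (0.96), *Gng11* for *Svil* (0.93), *Lrrc19* for *Flii* (0.90), *Rps20* for *Capg* (0.86) and *Mknk1* for *Vil1* (0.84). *Vav3* was at a 1.902-fold lower level in the Nav1.7 KO group (adjusted p = 5.42e-07). Within the family, *Avil* and *Scin* had r = 0.94 over 18 arrays and r = -0.08 over the 12 arrays of the Nav1.8 and Nav1.9 lines.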

How the data were processed

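The authors hybridized biotin-labelled DRG RNA to Affymetrix arrays and deposited log2 intensities from Affymetrix Expression Console, whose version and summary method are not given in the sources used here. The number of arrays limits the precision. Of 45101 probe sets, 64 controls were left out, and 34945 of the rest carried 1 gene symbol. The brightest of these stood for each of 18193 genes. limma 3.58.1 (R 4.3.3) fitted 6 group means over 18 arrays (12 residual and 3.44 prior degrees of freedom), for genes and for all 45037 probe sets, with Benjamini-Hochberg adjustment and a threshold of 0.05. Tested on simulated data of the Nav1.7 comparison over 18193 genes, the fit recovered 38.8% of genes changed by 0.25 (log2) and 91.0% of those changed by 0.585. The study gives n = 3 Nav1.7 KO mice and n = 3 littermates, and for the arrays n = 3 null mutants with triplicate replicates. It does not say whether each array held RNA of a single animal, so p-values measure the spread between these samples. Positions were found for 18145 genes and promoter windows for 6 of 7 members, by symbol.

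Members and lists were chosen with earlier results of these data known. Named genes are the members, the 3 targeted channels, up to 3 genes with the smallest p per list and line past the threshold, those passing within 2 Mb of *Avil*, and the 5 highest and 5 lowest r with *Avil* plus the highest for each other member.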

Additional observations from a re-analysis of the deposited data

Results flagged for a closer look

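The KO effect on *Avil* differed between lines by a test of the difference itself. It was more negative in the Nav1.7 than in the Nav1.8 line, with a log2 difference of -0.63 (adjusted p = 1.87e-05), and than in the Nav1.9 line, with one of -0.58 (adjusted p = 3.07e-05). The same was found for *Scin*, with differences of -1.23 from the Nav1.8 effect (adjusted p = 6.87e-06) and -0.89 from the Nav1.9 effect (adjusted p = 0.000124). For *Svil* the Nav1.7 effect was above the Nav1.9 effect by 0.34 (adjusted p = 0.0362). Groups of 3 arrays were too small for the test of single arrays that stand apart.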

How the results depend on the processing

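*Avil* stayed lower and past the threshold in the Nav1.7 line under all 17 alternatives tried, from -0.67 to -0.60 (adjusted p from 1.15e-10 to 0.0459). *Scin* did so under 15 of 16, from -1.22 to -1.10. It missed the adjusted threshold set here in the analysis of variance on 6 arrays (limma not used, adjusted p = 0.0548, unadjusted p = 0.000180). The study names that test with a P-value threshold and does not say whether it was adjusted. The 1 *Scin* probe set carries a suffix for several transcripts of a gene, so *Scin* had no value with suffixed probe sets (_s_at, _x_at and _a_at) left out. *Svil* kept its direction under all 17, from 0.15 to 0.30, and passed under 10. Not every setting could move a log2 fold change. The line alone, a trend and robust prior, the replicate block and the analysis of variance leave it as it was and change the p-value. *Avil* has 1 bright probe set without a suffix, so choosing or leaving out probe sets could not move its -0.64 either. Of 1078 recomputed values, 970 kept their direction and side of the threshold (counts within 1.5 times), 27 lost and 8 gained the threshold, 53 counts moved further, and 20 changed sign. None of those 20, nor the values they replaced, passed the threshold, and their sizes were 0.102 at most.

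The values that changed sign were these. With the mean of all probe sets, *Flii* was 0.0278 in the Nav1.7 line, *Svil* was 0.0030 in the Nav1.8 line (0.0637 with suffixed probe sets left out), and *Capg* was -0.0384 in the Nav1.9 line (-0.0014 with array weights). With the *Xist* class as a term, *Avil* was 0.0099 and *Vil1* was -0.102 in the Nav1.8 line. Between Nav1.7 and Nav1.9 littermates, *Gsn* differed by 0.0055 after quantile normalization and by 0.0032 with array weights. With 1 array left out, the Nav1.8 line gave -0.0356 to 0.0073 for *Avil*, -0.0578 to 0.0608 for *Vil1* and -0.0430 to 0.0237 for *Flii*, the Nav1.9 line gave -0.0424 to 0.0513 for *Capg*, the *Gsn* littermate difference was -0.077 to 0.0619, and in the Nav1.7 line the *Gsn* probe set 1437171_x_at was -0.0048 to 0.130 and the *Flii* probe set 1439356_at -0.0035 to 0.155. *Avil* between Nav1.8 and Nav1.9 littermates (-0.11) passed with dim probe sets left out (adjusted p = 0.0421) and with a trend and robust prior (0.0304).

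Members called in the Nav1.7 line numbered 1 in place of 3 with suffixed probe sets left out, where *Scin* had no value, and in the analysis of variance. With each line fitted alone, genes near *Avil* numbered 2, actin regulators 0, macrophage markers 0 and injury genes 1 in the Nav1.7 line, and injury genes 0 in the Nav1.9 line. The analysis of variance called 0 in each of these 5 counts, and with suffixed probe sets left out 0 actin regulators and 0 macrophage markers passed in the Nav1.7 line. Macrophage calls there were 2 after quantile normalization, median centring or a trend and robust prior, and 5 with the *Xist* class as a term. Neuron markers called in the Nav1.7 line were 1 with dim probe sets left out, 1 with the mean of all probe sets and 2 with a trend and robust prior. For actin regulators in the Nav1.9 line 1 passed with dim probe sets left out and 1 with a trend and robust prior. Leaving out 1 array gave 2 to 3 genes near *Avil*, 1 to 4 actin regulators, 0 to 1 macrophage markers and 1 to 4 injury genes in the Nav1.7 line, and 0 to 1 actin regulators and 5 to 10 injury genes in the Nav1.9 line.

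All genes called in the Nav1.7 line numbered 787, but 286 with the line alone, 46 by analysis of variance and 522 without littermate 3. In the Nav1.8 line they were 3, against 1, 0 and 5 (without littermate 3). In the Nav1.9 line they were 86, against 8, 0, 166 with dim probe sets left out, 173 with a trend and robust prior, 154 with array weights and 39 to 122 with 1 array left out. The line alone and the analysis of variance use 6 arrays in place of 18, and for the other changes the cause was not tested.

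The main fit did not pair arrays by the replicate numbers that groups share. With 3 arrays a group, correlations cannot decide whether same-numbered arrays were paired. The deviations of same-numbered KO and littermate arrays correlated at 0.0154 to 0.266 in the Nav1.7, -0.110 to 0.263 in the Nav1.8 and -0.194 to 0.0624 in the Nav1.9 line, and 3, 1 and 1 of 3 KO arrays correlated best with their own number. With the replicate block 730, 2 and 69 genes passed in the 3 lines, 3 members did so in the Nav1.7 line, and 2 of the 16 probe sets in place of 3.

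Limits: with 3 arrays a group, small changes are easily missed. Littermate groups differ by line, and those of the Nav1.7 line also by *Xist* class. Whole ganglia mix cell types, deposited values carry no summary method, and dim probe sets (*Vil1*) lie near the floor of the signal.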
